A study of Mus musculus with 12 samples.

Results

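Class switch recombination exchanges the constant region of an antibody heavy chain by cutting the switch regions of the locus and joining the ends. Cytosines in these regions are first turned into uracil. Uracil removal and mismatch repair then convert the lesions into double-strand breaks, the ATM signalling cascade and chromatin factors hold and protect the ends, and non-homologous end joining ligates them. Homologous recombination and the Fanconi pathway repair breaks and crosslinks that arise during DNA replication, which makes them prominent in dividing cells such as activated B cells. The genes described here are 36 named members of these pathways, chosen by symbol. Of these, 35 had probe sets on the array, out of 18193 genes with a probe set of their own, and Dclre1c was not analysed here. The 35 members were covered by 79 probe sets, none of which carried a further symbol, with 14 members read by 1 probe set and 21 by more. A member's call is that of its brightest probe set over all arrays, and 33 of these 35 lay above 5.73, the median level of all probe sets on the log2 scale.

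The RNA came from mouse splenic B cells purified by depletion of CD43-bearing cells, with a stated purity above 98%. The 4 groups, each of 3 independent replicates on 1 array apiece, were EFLmDREAM transgenic (Tg) cells after 2 days with lipopolysaccharide (LPS, 20 µg/ml) and interleukin 4 (IL-4, 10 ng/ml), wild type (WT) cells under the same stimulation, unstimulated Tg cells (day 0) and unstimulated WT cells (day 0). LPS activates B cells through TLR4, and IL-4 steers class switching. DREAM is the calcium-binding transcriptional repressor encoded by Kcnip3. The promoter and founder line of the transgene and the age and strain of the mice are not given in the sources used here.

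Affymetrix probe set values are log2 summaries, so a difference of 1 is a doubling of signal, and 12 arrays limit the precision. Array medians were 5.97 to 6.05 at day 0 and 5.36 to 5.41 at day 2, so the changes under stimulation were fitted to values quantile-normalized over all 12 arrays, and the genotype comparisons to the values as deposited. The tests were limma's moderated test with Benjamini-Hochberg adjustment over 45037 probe sets, and a gene "passed" where the adjusted p lay under 0.05. Both probe sets of Kcnip3 missed that threshold between the genotypes on either day (Tg minus WT 0.23 ± 0.12 and 0.10 ± 0.10 at day 0), and whether they match the transgene is not given, so they do not check the genotype labels. One array stood apart: WT day 0 replicate 1 read the 5′ actin control probe set 2.22 below the 3′ one, against 0.54 to 0.67 below in the other day 0 arrays, a measure of RNA integrity or labelling. At day 2 replicate 1 was again the lowest, at −0.98 against −0.78 and −0.43 in Tg and −1.36 against −0.79 and −0.64 in WT. Each group held 1 array, its replicate 3, in which the Y-chromosome gene Eif2s3y was dim (3.33 to 3.78, against 8.27 to 9.55 in replicates 1 and 2), so the replicate number also tracks the sex of the mice. WT day 0 replicate 1 was also the highest of the 6 day 0 arrays for 25 of the 35 members. The mean over the members was 7.75 in that array, 7.5 and 7.38 in the other WT day 0 arrays, and 7.33 to 7.4 in Tg. The members that passed at day 0 are given with and without that array. Medians, sign and overlap counts, further probe sets and the wider gene list are given with all 12 arrays only. The 7 measured B cell markers summed to similar levels in day 0 Tg arrays (15.47 to 15.49, log2 of summed linear values) and WT arrays (15.39 to 15.60). Of these 7, 1 was lower and 0 higher in Tg cells, and the brightest markers weigh most in such a sum. The 11 granulocyte markers were all higher in Tg cells at day 0, with sums of 13.34 to 13.87 in Tg arrays and 9.84 to 9.97 in WT arrays, as were 11 of 12 monocyte and macrophage markers (13.05 to 13.66 in Tg, 12 to 12.36 in WT). Of 9 erythroid markers, 6 were higher and 1 lower in Tg cells, and 4 of 13 T and NK cell markers were higher. The part of these other cells in the repair gene differences was not tested, and in bulk RNA fewer cells of a type and less RNA per cell cannot be told apart.

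The first comparison set unstimulated Tg cells against unstimulated WT cells, preparations that also differed in the markers of other cells given above. In unstimulated Tg cells, Rif1, Trp53bp1, Ung, Msh6, Msh3, Hmces and Rad50 were lower than in WT cells, and H2ax was higher. The 7 lower members span break end protection, uracil removal, mismatch repair and break sensing, and no member of the end joining or homologous recombination groups passed at its brightest probe set. Among all genes, 4.9% were called lower and 5.45% higher in this comparison. The median difference of the 35 members was −0.20, and that of all genes 0.01. All 3 Tg arrays lay below all 3 WT arrays for 10 members, a pattern seen in 12.2% of all genes. The estimate was below 0 for 27 of the 35, against 46.8% of all genes.

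Rif1 and Trp53bp1, which had the largest differences, encode partners at the break: Trp53bp1 encodes a chromatin reader that binds marked nucleosomes beside a break, and RIF1 docks onto it and blocks resection of the ends, which favours end joining. Rif1 read 7.79, 7.69 and 7.58 in the Tg arrays against 8.73, 8.56 and 8.23 in the WT arrays. The groups did not overlap, and Rif1 was 1.77-fold lower in Tg cells (−0.82 ± 0.11, adjusted p = 0.000646). Trp53bp1 read 8.91, 8.91 and 8.76 in Tg against 9.91, 9.52 and 9.36 in WT. It was 1.67-fold lower (−0.74 ± 0.13, adjusted p = 0.00312), again without overlap. Without WT day 0 replicate 1 the differences were −0.71 (adjusted p = 0.00151) for Rif1 and −0.58 (adjusted p = 0.00486) for Trp53bp1.

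Ung encodes the glycosylase that removes uracil from DNA, and Msh6 the subunit of the mismatch sensor that recognises single-base mismatches. Ung read 7.79, 7.67 and 7.75 in Tg arrays against 8.60, 8.27 and 8.08 in WT arrays, a 1.49-fold lower level (−0.58 ± 0.13, adjusted p = 0.0118). Msh6 read 8.51, 8.51 and 8.53 in Tg against 9.37, 9.15 and 8.77 in WT, also 1.49-fold lower (−0.58 ± 0.12, adjusted p = 0.0115). For both genes the Tg arrays lay close together and below every WT array, while the WT arrays were spread over more than 0.5. Without WT day 0 replicate 1 both differences were −0.44, with adjusted p = 0.0305 for Ung and 0.0313 for Msh6.

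Msh3, whose product recognises insertion and deletion loops, read 6.76, 6.92 and 6.92 in Tg arrays against 7.82, 7.31 and 7.12 in WT arrays (−0.55 ± 0.14, adjusted p = 0.0303). Hmces, which encodes a shield that crosslinks to abasic sites in single-stranded DNA, read 8.96, 9.02 and 8.92 in Tg against 9.61, 9.49 and 9.21 in WT (−0.47 ± 0.10, adjusted p = 0.0102). Neither gene's groups overlapped. Rad50, the structural arm of the MRE11 complex that tethers break ends, read 8.01, 7.91 and 7.79 in Tg against 8.28, 8.18 and 8.12 in WT (−0.29 ± 0.08, adjusted p = 0.0471). Without WT day 0 replicate 1, Hmces still passed (−0.38, adjusted p = 0.0327), while Msh3 (−0.35, adjusted p = 0.0563) and Rad50 (−0.25, adjusted p = 0.144) did not. Thus 5 members were lower without that array, and 12 without WT day 0 replicate 3. Msh3 also missed the threshold without Tg replicate 1, 2 or 3 (adjusted p = 0.106, 0.062 and 0.077). In a fit of the 6 day 0 arrays alone only Rif1 (adjusted p = 0.0161) and Trp53bp1 (0.029) passed, while Ung (0.0529), Msh6 (0.069), Hmces (0.063), Msh3 (0.124) and Rad50 (0.135) did not. Rad50 passed among the 6 single-array omissions only without WT replicate 3.

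H2ax encodes the histone variant that is phosphorylated around breaks. It read 9.55, 9.55 and 9.75 in Tg arrays against 9.30, 9.15 and 9.44 in WT arrays, 1.25-fold higher and without overlap (0.32 ± 0.09, adjusted p = 0.0481). The value lay just inside the threshold, and without WT day 0 replicate 1 it was 0.32 with an adjusted p of 0.0971. It also missed the threshold without Tg replicate 1, 2 or 3 or WT replicate 2 (adjusted p = 0.0794, 0.0717, 0.192 and 0.156), and passed without WT replicate 3 (0.0171). Among genes that missed the threshold at day 0, Lig4, the end joining ligase, read 4.72, 4.44 and 4.73 in Tg against 5.60, 5.10 and 4.75 in WT (−0.52 ± 0.17, adjusted p = 0.0717). Rnf8, a ubiquitin ligase recruited by MDC1, differed by −0.37 ± 0.11 (adjusted p = 0.0596), and passed on quantile-normalized values (−0.39, adjusted p = 0.0348). Atm, the apical kinase of break signalling, and Brca1, which promotes resection and recombination, differed by 0.25 ± 0.22 and −0.13 ± 0.14, with intervals that included 0. The replication-linked nuclease gene Exo1 differed by 0.10 ± 0.14 and the checkpoint kinase gene Chek1 by −0.20 ± 0.12. The Ku subunit genes Xrcc5 and Xrcc6, whose products cap break ends, differed by 0.01 ± 0.13 and −0.01 ± 0.08.

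**Figure D1:**
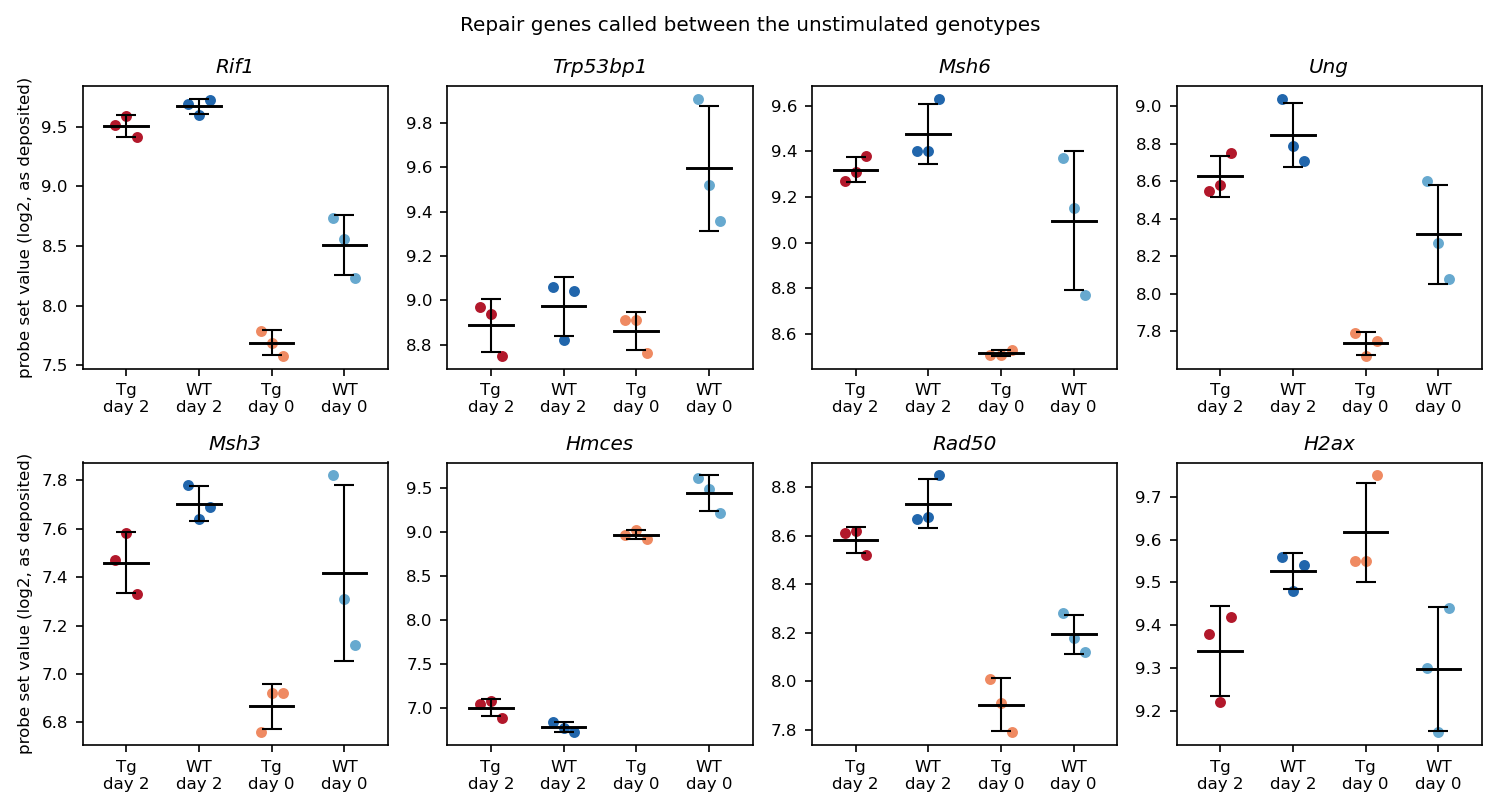
Values of the 8 repair genes that passed between the unstimulated genotypes, each in its own panel with its own axis (log2, as deposited); points are arrays, horizontal lines group means and bars ± SD of 3 arrays. In the day 0 columns Tg arrays lie below all WT arrays for the first 7 genes and above them for H2ax, and levels of different days are not compared here.

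The probe sets of a gene did not always move together. Trp53bp1 has 6 probe sets. The dim pair 1442316_x_at and 1457812_at showed the largest genotype differences of all member probe sets at day 0. Probe set 1457812_at read 3.6, 3.87 and 3.64 in Tg arrays against 5.71, 5.59 and 5.51 in WT arrays (−1.90 ± 0.10, adjusted p = 8.65e-08). Probe set 1442316_x_at, whose suffix marks probes that may match other transcripts, read 4.02, 4.08 and 3.98 in Tg against 5.80, 6.17 and 5.30 in WT (−1.73 ± 0.16, adjusted p = 2.22e-05). These 2 were also the only member probe sets that passed at day 2, where 0.995% of all probe sets were lower and 0.868% higher. There 1457812_at read 3.40, 3.36 and 3.61 in Tg against 4.25, 4.35 and 4.22 in WT (−0.82, adjusted p = 0.00049), and 1442316_x_at read 3.48, 3.52 and 3.51 in Tg against 4.27, 4.13 and 4.21 in WT (−0.70, adjusted p = 0.04). The groups did not overlap on either day. The Tg values lay far under 5.73, the median level of all probe sets, on both days, where the lowest value of the table is 2.7, so they may be only upper bounds on the Tg level. The transcript parts these probe sets read are not given in the sources used here. The other 3 probe sets of Trp53bp1 beside the brightest one did not pass between the genotypes on either day.

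**Figure D2:**
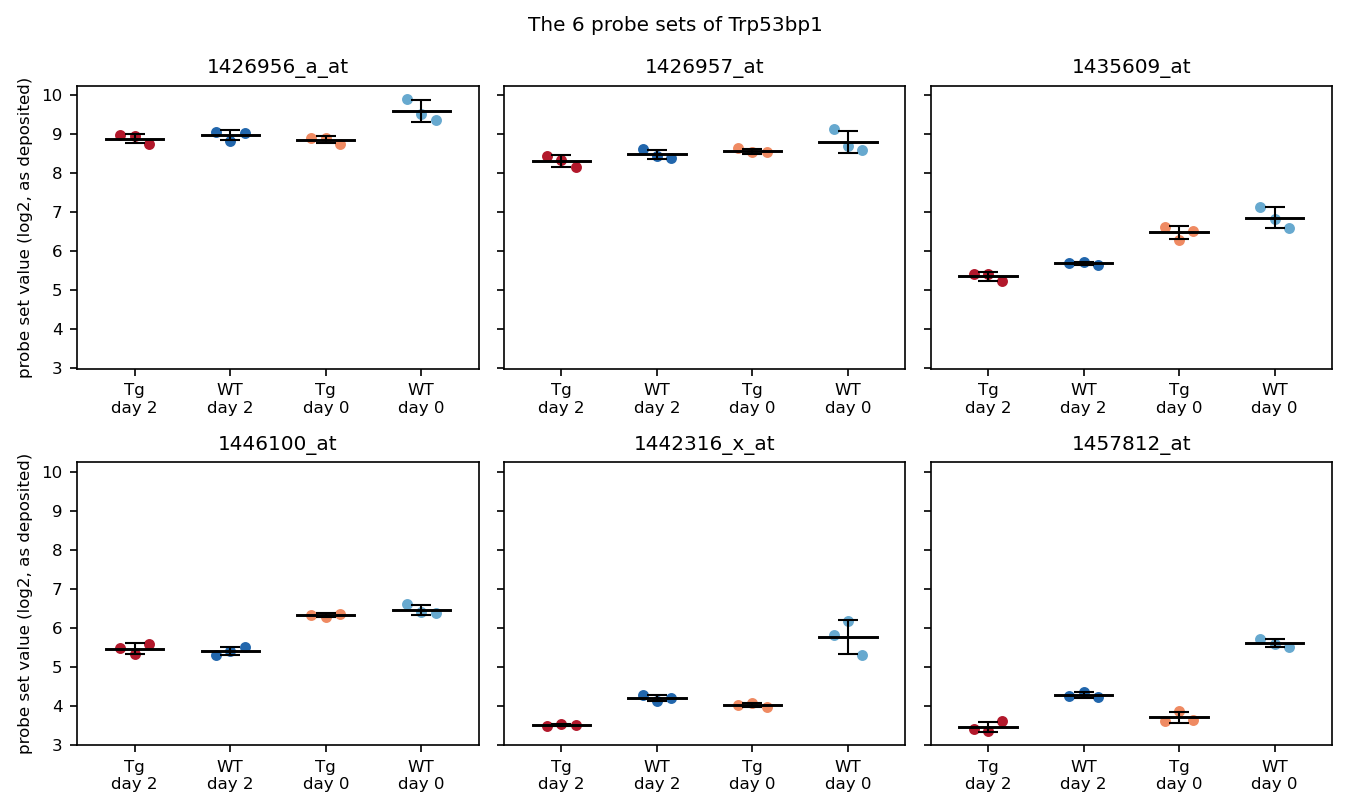
The 6 probe sets of Trp53bp1 on 1 shared axis (log2, as deposited), with arrays as points, group means as lines and ± SD of 3 arrays as bars. The brightest probe set, 1426956_a_at, separates Tg from WT at day 0 only, while the dim 1442316_x_at and 1457812_at separate them on both days.

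For Rif1, 1429490_at was lower in Tg cells like the brightest probe set (−0.75, adjusted p = 0.037), whereas 1437179_at read 8.33, 7.66 and 8.30 in Tg against 6.91, 8.05 and 8.16 in WT, with overlap and an SE of 0.59. Averaged over its 4 probe sets Rif1 differed by −0.29 and did not pass (adjusted p = 0.278). For Msh3, 1446511_at read 6.46, 6.87 and 6.39 in Tg against 7.75, 7.52 and 7.39 in WT, a gap of −0.98 against −0.55 at the brightest probe set. The other 2 probe sets of Msh3 did not pass. Rad51ap1, which encodes a cofactor of strand exchange, passed at 1448899_s_at with 5.71, 5.69 and 5.60 in Tg against 5.45, 5.27 and 5.09 in WT (0.40 ± 0.10, adjusted p = 0.0281). Its brightest probe set did not pass (0.21 ± 0.20, adjusted p = 0.582). Over the 79 member probe sets, 11 were lower and 2 higher at day 0, against 4.98% lower and 4.47% higher of all probe sets.

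After 2 days of LPS and IL-4, no member passed between the genotypes in limma's test at its brightest probe set (0 higher, 0 lower), where 1.24% of all genes were higher and 1.1% lower. At an unadjusted p under 0.05, 1 member was higher and 5 were lower in Tg cells, where 5.94% of all genes were higher and 7.26% lower. The estimate was below 0 for 30 of the 35 members, against 49.2% of all genes, with a median of −0.14 against 0 for all genes. All 3 Tg arrays lay below all 3 WT arrays for 15 members, against 12.2% of all genes. On quantile-normalized values the median of the members was −0.09. The largest gap was that of Nbn, whose product recruits ATM to the MRE11 complex. It read 8.61, 8.63 and 8.40 in Tg arrays against 9.02, 8.93 and 9.05 in WT arrays, a difference of −0.45 ± 0.13 that missed the threshold (adjusted p = 0.133). Xrcc5 read 7.90, 7.81 and 7.68 in Tg against 8.17, 8.02 and 8.19 in WT (−0.33 ± 0.13, adjusted p = 0.344). Rnf8 read 7.93, 7.95 and 8.09 in Tg against 8.23, 8.19 and 8.45 in WT (−0.30 ± 0.11, adjusted p = 0.295). Exo1 read 8.82, 8.77 and 8.50 in Tg against 8.96, 8.87 and 9.03 in WT (−0.26 ± 0.14, adjusted p = 0.572). In each of these 4 genes every Tg array lay below every WT array, although no difference reached an adjusted p under 0.05.

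The members that were lower at day 0 had smaller estimates at day 2. Rif1 differed by −0.17 (95% interval −0.41 to 0.08), Trp53bp1 by −0.09 (−0.36 to 0.19), Ung by −0.22 (−0.49 to 0.05) and Msh6 by −0.16 (−0.43 to 0.11). The change between the days is tested by the interaction below, which Ung (0.36 ± 0.18, adjusted p = 0.412) and Msh6 (0.42 ± 0.18, adjusted p = 0.313) did not pass. Hmces had the opposite sign to day 0, with 7.04, 7.08 and 6.89 in Tg against 6.84, 6.77 and 6.73 in WT (0.22, interval 0.01 to 0.44, adjusted p = 0.412). Lig4 also stood slightly higher in Tg, at 6.31, 6.12 and 6.20 against 6.09, 5.88 and 5.90 in WT (0.25, interval −0.11 to 0.62, adjusted p = 0.682).

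**Figure D3:**
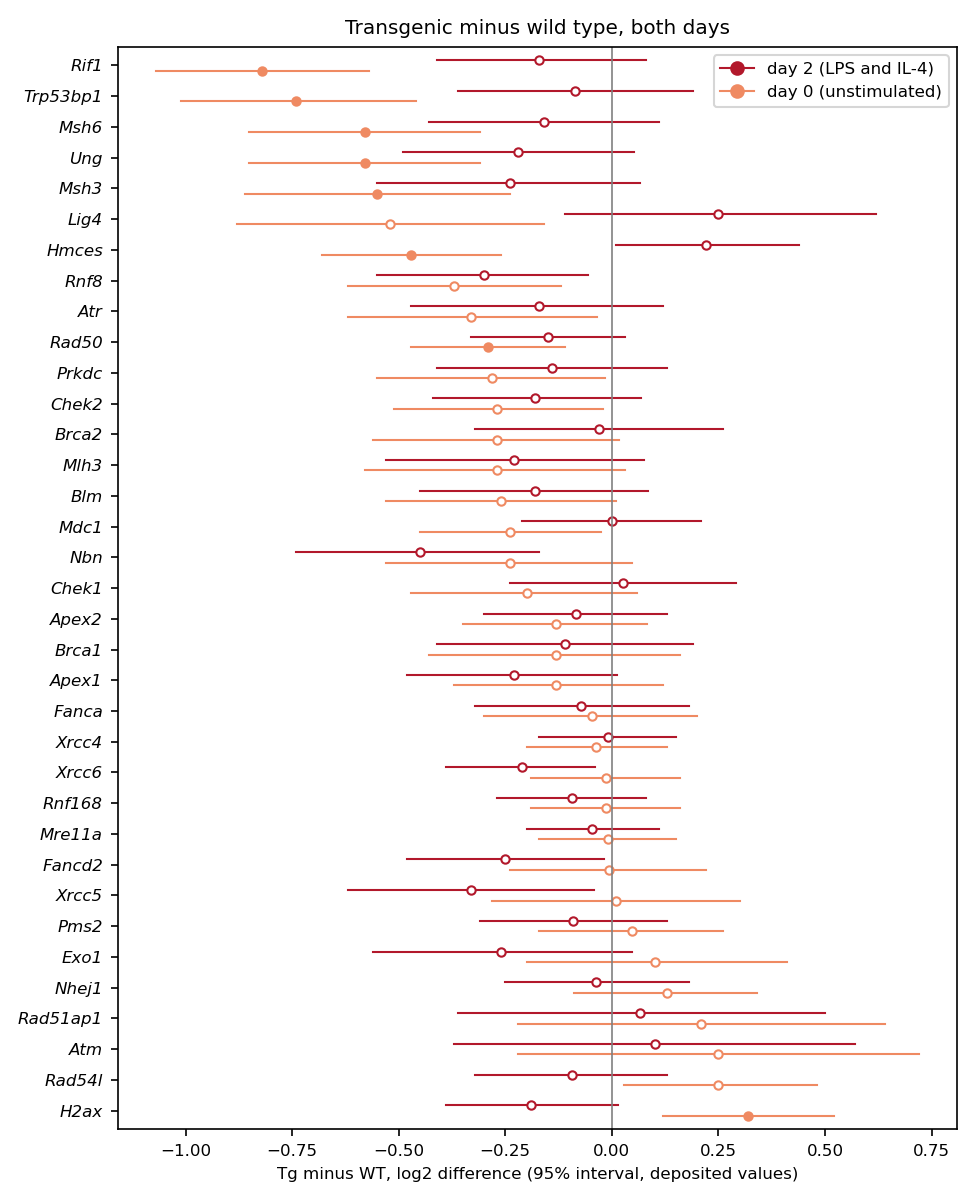
Tg minus WT difference of each of the 35 members at its brightest probe set (log2, deposited values), at day 2 above day 0, ordered by the day 0 estimate; bars are 95% intervals and filled points passed at an adjusted p under 0.05. Of the filled points 7 lie left of 0 and 1 right of it, all at day 0. Left of 0 lie 30 of 35 day 2 points, against 49.2% of all genes.

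The change in these genotype differences between the days was tested as an interaction, with 0.588% of all genes higher and 1.39% lower. A positive interaction means that Tg minus WT was larger at day 2 than at day 0. Of the 35 members only Hmces passed (0.69 ± 0.14, adjusted p = 0.0268), with Tg minus WT of 0.22 at day 2 and −0.47 at day 0. At an unadjusted p under 0.05, 5 members were higher and 2 lower in limma's test, where 6.19% of all genes were higher and 8.8% lower. Hmces kept its call in 11 of 18 alternative fits, with adjusted p-values of 0.00411 to 0.0824. Leaving out any 1 of Tg day 0 replicate 1 or 3, WT day 0 replicate 2, Tg day 2 replicate 1 or 2, or WT day 2 replicate 2 or 3 ended the call (adjusted p = 0.0652, 0.0784, 0.0699, 0.0732, 0.0824, 0.0746 and 0.0736 in that order). Without WT day 0 replicate 3, 5 members were higher and 1 lower. Rif1 and Trp53bp1 each had an estimate of 0.65 (adjusted p = 0.0682 and 0.111), Lig4 one of 0.77 (0.153) and H2ax one of −0.51 (0.0858). These 4 genes missed the threshold on deposited values, but on quantile-normalized values Rif1 (0.78, adjusted p = 0.0231) and Trp53bp1 (0.72, adjusted p = 0.0493) passed. With the replicate number as a block Rif1 (adjusted p = 0.0468) and H2ax (0.0424) passed, so for Rif1, Trp53bp1 and H2ax the call depends on the setting. Over the 79 member probe sets, 3 were higher in the interaction, that of Hmces among them, and 0 lower. Of all probe sets 0.575% were higher and 1% lower. The interaction is not read at the dim Trp53bp1 probe sets, whose Tg values lay near the low end of the table on both days.

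Stimulation itself changed most of the members. In Tg cells 27 of 35 rose and 3 fell, and in WT cells 25 rose and 4 fell. Among all genes 35.2% were higher and 23.3% lower in Tg cells, and 36% were higher and 24% lower in WT cells. The median change of the members was 0.94 in Tg and 0.77 in WT, against 0.08 for all genes in both. Of the 8 largest rises in WT cells, 5 were in the homologous recombination and Fanconi group. These counts depend on how the days are scaled: 22 members rose and 2 fell under each of 3 scalings, in Tg as in WT cells. The median of all genes lay between −0.36 and 0.28 over these scalings. Markers of other cells moved as well: the 11 granulocyte markers fell by a median of 3.50 in Tg, with 11 of 11 lower, and by 0.66 in WT, with 7 lower, and 10 of the 11 had a negative interaction that passed. At day 2, 3 granulocyte and 3 monocyte and macrophage markers were still higher in Tg cells, with granulocyte sums of 8.82 to 9.08 in Tg arrays and 8.41 to 8.46 in WT arrays. Their part in the day 2, interaction and stimulation results was not tested.

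Homologous recombination and Fanconi genes rose most, with 6 of 7 higher in both genotypes and medians of 2.46 in Tg and 2.28 in WT. Rad51ap1 read 9.47, 9.40 and 9.21 at day 2 against 5.97, 5.68 and 5.75 at day 0 in Tg cells (quantile-normalized values), an 11.8-fold higher level (3.56 ± 0.21). In WT cells it read 9.34, 9.28 and 9.16 at day 2 against 6.19, 5.66 and 5.06 at day 0 (3.62 ± 0.21). Rad54l, a translocase of recombination, rose by 2.60 ± 0.10 in Tg and 2.87 ± 0.10 in WT. Brca1 read 8.81, 8.77 and 8.60 at day 2 against 6.25, 5.92 and 6.02 at day 0 in Tg cells (2.66 ± 0.14), and 8.80, 8.77 and 8.80 against 6.61, 6.10 and 6.0 in WT cells (2.56 ± 0.14). Every day 2 array stood above every day 0 array for these genes. Blm, which encodes a helicase that dissolves recombination intermediates, rose by 2.46 in Tg and 2.28 in WT. Fancd2, the ubiquitinated core of the Fanconi pathway, rose by 2.06 and 2.20 in the same order, and Brca2, which loads the recombinase, by 1.32 and 1.01. Fanca, a subunit of the Fanconi core complex, was the exception: its brightest probe set differed by 0.07 in Tg and 0.08 in WT and did not pass, though it was called lower in Tg cells on deposited values and higher with array medians subtracted. Its second probe set 1452513_a_at rose by 0.70 and 0.63.

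Among mismatch repair genes, Exo1 had the largest change of all members at the brightest probe sets. It encodes the exonuclease that widens nicks into gaps and resects break ends. It read 8.87, 8.83 and 8.60 at day 2 against 4.54, 4.45 and 4.23 at day 0 in Tg cells, 20.5-fold higher (4.36 ± 0.13, adjusted p = 3.12e-11). In WT cells it read 8.97, 8.90 and 9.01 at day 2 against 4.57, 4.04 and 4.37 at day 0, 24.8-fold higher (4.63 ± 0.13, adjusted p = 1.59e-11). The day 0 levels lay under the median of all probe sets in every array, so the fold is only as firm as that low reading. Its probe set 1418027_at rose less, from a mean of 5.29 to 7.26 in Tg cells and from 5.15 to 7.2 in WT cells. The dim 1430225_at went from 3.41 to 3.54 in Tg and from 3.48 to 3.75 in WT. Msh6 rose by 0.89 ± 0.12 in Tg and 0.38 ± 0.12 in WT, and Pms2, a subunit of the MutL endonuclease, by 0.59 and 0.73. Mlh3, another MutL subunit gene, did not pass in either genotype (0.35 in Tg, 0.27 in WT), but on deposited values it differed by −0.29 in Tg and was called lower in WT (−0.33), and with array medians subtracted it was called higher in Tg (0.35). Msh3 rose at its brightest probe set (1.13 in Tg, 0.70 in WT) and fell at 1446511_at (−1.03 in Tg, −1.88 in WT), so its probe sets disagree on the direction.

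Break sensor and kinase genes rose in 6 of 7 cases in each genotype. Chek1 read 9.38, 9.37 and 9.19 at day 2 against 6.22, 6.15 and 6.23 at day 0 in Tg cells (3.11 ± 0.12), and 9.32, 9.25 and 9.17 against 6.72, 6.49 and 6.11 in WT cells (2.80 ± 0.12). Chek2, the checkpoint kinase downstream of ATM, rose by 1.84 in Tg and 1.66 in WT. Mre11a, the nuclease of the MRE11 complex, rose by 1.90 in both, with a small fall at its second probe set 1441990_at (−0.36 in Tg, −0.28 in WT). Its partners rose less, Rad50 by 0.94 in Tg and 0.75 in WT and Nbn by 0.88 and 1.01. Rad50 likewise fell slightly at its dimmer probe set 1425939_at (−0.25 in Tg, −0.18 in WT). Atm missed the threshold in Tg (0.54 ± 0.22, adjusted p = 0.0527) and passed in WT (0.77 ± 0.22, adjusted p = 0.00967), and its replicates were widely spread: WT cells read 9.22, 9.96 and 10.14 at day 2 against 8.60, 9.36 and 9.05 at day 0. Its interaction was −0.14 ± 0.31, so no difference between the genotypes was shown. The second probe set of Atm, 1428830_at, rose in Tg cells (0.60, adjusted p = 1.99e-05). In WT cells its mean went from 8.91 at day 0 to 9.53 at day 2, against 8.77 to 9.37 in Tg cells. Atr, the kinase of replication stress, passed in Tg only (0.39 ± 0.13, against 0.17 ± 0.13 in WT, interaction 0.16 ± 0.19), while its probe sets 1445091_at and 1438921_at fell in WT cells (−0.72 and −0.61). At its brightest probe set Atr passed in neither genotype on deposited values (0.057 in Tg, −0.1 in WT). With array medians subtracted Atr passed in both (0.7 in Tg, 0.52 in WT).

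End joining genes split in direction. Xrcc6 read 9.06, 8.99 and 9.22 at day 2 against 7.10, 7.08 and 7.15 at day 0 in Tg cells, 3.94-fold higher (1.98 ± 0.08). In WT cells it read 9.26, 9.21 and 9.27 at day 2 against 7.22, 7.10 and 7.09 at day 0, 4.31-fold higher (2.11 ± 0.08). Its partner Xrcc5 rose by 0.75 in Tg and 1.02 in WT. Lig4 read 6.60, 6.40 and 6.5 at day 2 against 4.46, 4.24 and 4.45 at day 0 in Tg cells (2.12 ± 0.17), and 6.42, 6.18 and 6.20 against 5.33, 4.85 and 4.47 in WT cells (1.39 ± 0.17). Xrcc4, the scaffold of LIG4, rose by 0.29 in Tg and 0.22 in WT on quantile-normalized values and was called lower in both on deposited values (−0.23 and −0.26). Nhej1, which encodes an end-bridging factor of the same complex, read 5.42, 5.36 and 5.28 at day 2 against 5.91, 6.03 and 5.97 at day 0 in Tg cells (−0.61 ± 0.11) and fell by 0.47 in WT. Its dimmer probe set 1425651_at rose by 0.31 in Tg and 0.26 in WT. Prkdc, the catalytic subunit of the end joining kinase, differed by −0.26 ± 0.12 in Tg cells (adjusted p = 0.0779), and in WT cells read 7.75, 7.83 and 7.81 at day 2 against 8.57, 8.06 and 8.13 at day 0 (−0.46 ± 0.12, adjusted p = 0.00504). The WT fall of Prkdc did not pass with array medians subtracted.

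End protection and chromatin genes were the least uniform. Rif1 read 9.49, 9.58 and 9.40 at day 2 against 7.60, 7.45 and 7.36 at day 0 in Tg cells, 4.07-fold higher (2.02 ± 0.11). In WT cells it read 9.64, 9.56 and 9.66 at day 2 against 8.59, 8.42 and 8.13 at day 0, 2.36-fold higher (1.24 ± 0.11). The day 2 levels of the genotypes were close and the day 0 levels were not. Trp53bp1 read 9.0, 8.99 and 8.82 at day 2 against 8.90, 8.87 and 8.75 at day 0 in Tg cells (0.09 ± 0.12, adjusted p = 0.527). In WT cells it read 9.06, 8.86 and 9.02 at day 2 against 9.91, 9.52 and 9.40 at day 0 (−0.63 ± 0.12, adjusted p = 0.000499). With array medians subtracted the Tg change of Trp53bp1 was 0.67 and the WT change −0.01, so both depend on the scaling. Its probe set 1435609_at fell in Tg cells too (−0.49, adjusted p = 0.00514). Rnf168, a ubiquitin ligase that marks nucleosomes for Trp53bp1's product, rose by 1.25 in Tg and 1.27 in WT. Mdc1, the scaffold bound to phosphorylated H2AX, and Rnf8 passed on quantile-normalized values in Tg (0.31 and 0.42) and not in WT (0.03 and 0.26), and neither interaction passed. On deposited values neither passed in Tg (−0.21 and 0.09) and Mdc1 was called lower in WT (−0.45), while with array medians subtracted Rnf8 rose in WT as well (0.63). H2ax differed by −0.34 in Tg and 0.20 in WT on quantile-normalized values, and by 0.36 in Tg with array medians subtracted, so its direction in Tg depends on the scaling.

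Of the genes that act on uracil and its abasic product, 3 rose and 1 fell in both genotypes. Hmces had the largest fall of all members. It read 7.28, 7.33 and 7.16 at day 2 against 8.97, 9.0 and 8.95 at day 0 in Tg cells, 3.27-fold lower (−1.71 ± 0.09, adjusted p = 4.15e-09). In WT cells it read 7.12, 7.04 and 6.98 at day 2 against 9.58, 9.49 and 9.25 at day 0, 5.24-fold lower (−2.39 ± 0.09, adjusted p = 1.8e-10). The Tg fall was smaller from a lower day 0 level, and it fell in both genotypes under each scaling. Ung rose by 1.17 ± 0.12 in Tg and 0.70 ± 0.12 in WT. Apex1, the main abasic endonuclease, read 11.43, 11.51 and 11.33 at day 2 against 9.93, 9.72 and 10.02 at day 0 in Tg cells (1.53 ± 0.12) and rose by 1.69 in WT. Its relative Apex2 rose by 0.38 in Tg and 0.29 in WT and was called lower in both on deposited values (−0.23 and −0.28).

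**Figure D4:**
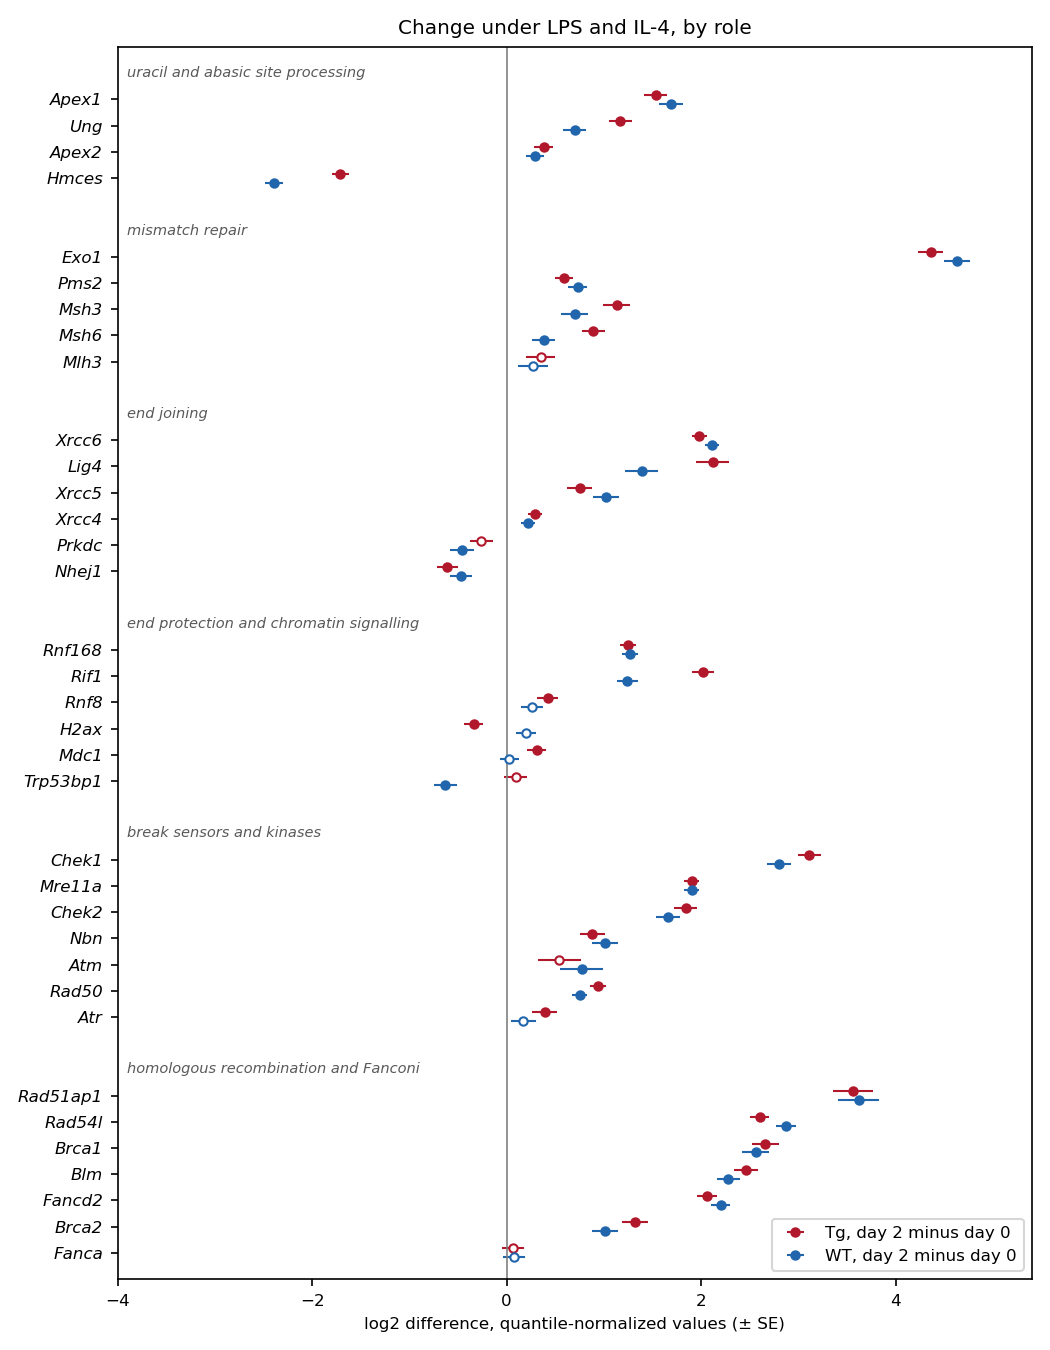
Day 2 minus day 0 change of each member in Tg and WT cells at its brightest probe set (log2, quantile-normalized values, ± SE, 3 arrays per group), grouped by role; filled points passed at an adjusted p under 0.05. Exo1 reaches 4.36 in Tg and 4.63 in WT, and Hmces lies at −1.71 and −2.39. Rif1, Lig4, Trp53bp1 and Hmces show gaps between the genotypes. The interaction passed for Hmces on deposited and quantile-normalized values, for Rif1 and Trp53bp1 only on the latter, and for Lig4 on neither.

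The promoters of 28 of the 36 listed members are held in RefSeq's table for GRCm38.p6, from 250 bases before to 50 bases after the start. Genes of DNA replication and repair are classic targets of E2F, the factor that drives entry into S phase, so these windows were searched on both strands for the E2F-type letters TTTCCCGC, TTTCGCGC, TTTGCCGC and TTTGGCGC. A match stood in 6 of the 28 (21.4%), against 704 of 27025 genes in the table (2.6%). The 6 were Msh3, Msh6, Xrcc6, Mdc1, Chek2 and Brca2, and the 2 matches in Msh3 overlap. Among the 18 members that rose in both genotypes 5 held a match (27.8%), as did 1 of the 9 other measured members (11.1%). Among the 9 that rose by 1.5 or more in both 2 held one (22.2%), as did 4 of the other 18 measured members (22.2%). The windows of Exo1 and Fancd2 were not analysed here. Shown are Xrcc6 and Chek2, which rose strongly and hold a match, Msh6, which was lower in unstimulated Tg cells, and Hmces, which fell and holds none. Each is 5′ to 3′ on the gene's strand, with the match, in either orientation, in capitals. They lie at chr15:82016119-82016418, chr5:110839733-110840032, chr17:87974800-87975099 and chr6:87913726-87914025, all on the plus strand.
Xrcc6: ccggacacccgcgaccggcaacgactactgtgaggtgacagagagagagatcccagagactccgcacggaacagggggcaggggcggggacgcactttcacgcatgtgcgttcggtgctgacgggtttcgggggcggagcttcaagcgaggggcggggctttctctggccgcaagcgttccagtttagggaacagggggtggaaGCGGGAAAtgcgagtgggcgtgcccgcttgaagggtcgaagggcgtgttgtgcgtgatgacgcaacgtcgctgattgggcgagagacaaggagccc
Chek2: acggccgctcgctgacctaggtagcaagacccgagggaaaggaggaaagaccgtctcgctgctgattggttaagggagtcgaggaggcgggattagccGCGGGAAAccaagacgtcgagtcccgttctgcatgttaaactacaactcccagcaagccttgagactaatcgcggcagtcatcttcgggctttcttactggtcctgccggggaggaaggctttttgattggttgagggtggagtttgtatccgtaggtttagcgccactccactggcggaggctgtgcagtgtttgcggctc
Msh6: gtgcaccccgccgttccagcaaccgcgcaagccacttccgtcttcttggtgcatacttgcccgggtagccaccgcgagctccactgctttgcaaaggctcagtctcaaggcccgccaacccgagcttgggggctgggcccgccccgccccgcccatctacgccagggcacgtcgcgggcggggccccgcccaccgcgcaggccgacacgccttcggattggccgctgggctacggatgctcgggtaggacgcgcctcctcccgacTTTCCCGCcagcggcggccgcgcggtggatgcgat
Hmces: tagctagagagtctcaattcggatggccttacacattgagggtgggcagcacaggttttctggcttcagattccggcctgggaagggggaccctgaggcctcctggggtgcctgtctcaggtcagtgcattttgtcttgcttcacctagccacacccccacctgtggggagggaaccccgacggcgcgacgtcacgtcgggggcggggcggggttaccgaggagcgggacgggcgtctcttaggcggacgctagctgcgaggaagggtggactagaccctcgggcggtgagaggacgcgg
The matches begin 46 bases before the start in Xrcc6, 152 before it in Chek2 and 15 after it in Msh6. A match describes the letters only and is not evidence of binding.

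The wider pathway was read through 59 further class switching and repair genes. At day 0, 5 were lower in Tg cells and 0 higher in limma's test (10 and 3 at an unadjusted p under 0.05, where 12% of all genes were lower and 13.3% higher). They were Ube2t, the ubiquitin-conjugating enzyme of the Fanconi pathway (−0.67 ± 0.11), Rad1, a clamp subunit of the checkpoint (−0.57 ± 0.16), Rev1, a translesion polymerase (−0.55 ± 0.12), Ddb2, a sensor of ultraviolet damage (−0.52 ± 0.12), and Rpa1, which coats single-stranded DNA (−0.38 ± 0.08). The median difference of the 59 was −0.05. Among all genes 4.9% were called lower and 5.45% higher. At day 2, Recql, a helicase gene, was higher (0.56 ± 0.10, adjusted p = 0.0123) and Fancl, the ubiquitin ligase of the Fanconi core, lower (−0.52 ± 0.07, adjusted p = 0.00107) in Tg cells. Of all genes 1.24% were higher and 1.1% lower at day 2. With stimulation 38 rose and 10 fell in Tg and 41 rose and 10 fell in WT, with medians of 0.60 and 0.62. The shares of all genes were 35.2% and 23.3% in Tg and 36% and 24% in WT. Clspn, the adaptor that activates CHEK1, rose by 3.20 in Tg and 3.17 in WT, and Rad54b, a relative of Rad54l, by 2.22 and 2.59. In the interaction 0 of the 59 passed in limma's test, where 0.588% of all genes were higher and 1.39% lower. At an unadjusted p under 0.05, 6 were higher and 4 lower, where 6.19% of all genes were higher and 8.8% lower. Beside these changes, all 29 measured proliferation markers rose in both genotypes, by a median of 2.58 in Tg and 2.76 in WT, and 3 of them were higher in Tg cells at day 0 (11 higher and 0 lower at an unadjusted p under 0.05). Whether the rise of the repair genes goes beyond that of dividing cells was not tested.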

How the data were processed

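RNA of 12 samples was hybridised to Affymetrix mouse genome arrays. The authors deposited log2 values, 1 per probe set, summarised by RMA in the affy package. The submitters' processing notes name these tools without versions. The sources used here do not say if both days were normalized in 1 run. RMA forces arrays of a run to similar distributions and a shift of most genes is then hidden. Groups follow the sample titles. Of 45101 probe sets, 64 controls were left out. One model with 4 group means was fitted to all 12 arrays with limma 3.58.1 in R 4.3.3, 2-sided, with 8 residual and 4.71 prior degrees of freedom. Genotype contrasts and the interaction used the deposited values, and stimulation contrasts used quantile-normalized values. Levels are compared between groups, not between probe sets. The procedure was tested on simulated data. The members, gene lists and tests were chosen with earlier results of these data known.

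Genes were named by a rule: every member that passed between the genotypes, the 4 largest genotype differences, the 8 largest rises and 4 largest falls under stimulation, a set of core repair genes, members whose probe sets disagree, and up to 4 genes of the second list, to which Rpa1 was added after its value was seen. Members not covered by the rule were given to complete each role group, after their values were seen. Same-numbered replicates deviated together for stimulated Tg against stimulated WT (r = 0.33, 0.101 and 0.178) and for WT stimulation (r = 0.318, 0.175 and 0.19). The highest r with another number was −0.143, 0.0574 and 0.0447 for the first, and −0.206, 0.0848 and 0.0976 for the second. The replicate block was therefore tried as an alternative, while the main fits held no term for replicate or sex. Alternatives were scaling, a level filter, the mean over probe sets, limma-trend, the block, the compared arrays alone and leaving out each array.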

Additional observations from a re-analysis of the deposited data

Results flagged for a closer look

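Hmces was singled out because its genotype difference changed between the days by the test of the difference itself. Tg minus WT was 0.22 ± 0.10 at day 2 and −0.47 ± 0.10 at day 0, an interaction of 0.69 ± 0.14 (limma, adjusted p = 0.0268, n = 3 arrays per group). All 3 Tg arrays lay above all 3 WT arrays at day 2 and below them at day 0, as in 9.76% and 12.2% of all genes on the respective day. The day 2 difference alone did not pass (adjusted p = 0.412), and 7 of 18 alternative fits ended the interaction call.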

How the results depend on the processing

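At day 0 the count of lower members, 7, was 2 when only the 6 compared arrays were fitted, and 5 to 12 with 1 array left out. The count of higher members, 1, was 0 with array medians subtracted or in the 6-array fit, and 0 to 1 with 1 array left out. At day 2, Trp53bp1 was lower in Tg cells with the mean over its probe sets (−0.34, limma, adjusted p = 0.0477), and 1 other member was lower in the 6-array fit. Under stimulation 7 members fell in Tg and 8 in WT on deposited values, and 2 fell in WT with array medians subtracted. In the interaction 3 members (Hmces, Rif1 and Trp53bp1) were higher on quantile-normalized values, and 2 were higher and 1 lower with the mean over probe sets. With 1 array left out 0 to 5 were higher and 0 to 1 lower. Among stimulation changes that passed in the main fit, the sign turned on deposited values for Apex2 (−0.23 in Tg, −0.28 in WT), Xrcc4 (−0.23 in Tg, −0.26 in WT) and Mdc1 (−0.21 in Tg). It turned with array medians subtracted for H2ax (0.36 in Tg), and with the mean over probe sets for Msh3 (−0.26 in WT) and Atr (−0.072 in Tg). Changes that had not passed also turned on deposited values, among them Mlh3 (−0.29 in Tg, −0.33 in WT), Fanca (−0.29 in Tg) and Mdc1 (−0.45 in WT). The cause was not tested.

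For unstimulated Tg against WT (r = 0.0778, 0.0701 and 0.297) and Tg stimulation (r = 0.0689, −0.16 and 0.115) the samples share only a number and, by Eif2s3y, the sex it tracks. With the replicate block 2 members were higher and 1 lower in the interaction, with Rif1 and H2ax passing beside Hmces. At day 0 Rad50 was lost (0.0554) and Lig4 gained (0.0327), and Atm passed in Tg stimulation (0.0159). No other count moved by more than 1.5 times with the block. Lig4 and Nhej1 lay under the level filter. The median signal of 5.73 limits dim probe sets such as Exo1 at day 0, where no detection call was used.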
